A study of Mus musculus with 2 samples.

Results

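The genes described here are 10 genes of the heart's response to wall stress and hypertrophy, chosen by their known role and not by their counts: Nppa, Nppb, Ankrd1, Xirp1, Xirp2, Fhl1, Rcan1, Gdf15, Nmrk2 and Ccn2. All 10 were among the 25004 genes of the count tables, 5 of them had a count, and 5 had none in either library. The mice were FvB/N animals 12 weeks old. The transgenic group carried a cardiac myosin binding protein-C (cMyBP-C) transgene from which the amino-terminal C0-C1f stretch had been deleted, and the control group was non-transgenic. Each group gave 1 library from 3 pooled hearts. The promoter of the transgene, and whether the endogenous protein was still made, were not stated in the labels. The study set the transgenic against the non-transgenic heart to find differences in messenger RNA. With 1 library per group there was no replicate check and no test, and every interval below covers counting error only.

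A stretched or overloaded heart muscle cell turns on a set of genes that serves as a readout of cardiac remodelling. Atrial and B-type natriuretic peptide, from Nppa and Nppb, are hormones released on wall stretch that lower blood pressure and volume, and both genes are active in the fetal ventricle and return in hypertrophy. Other genes of the set act inside the muscle cell, at titin, the Z-disc and the intercalated disc (Ankrd1, Xirp1, Xirp2, Fhl1), in calcineurin signalling (Rcan1) and in NAD synthesis (Nmrk2), and Gdf15 and Ccn2 encode secreted stress and matrix signals.

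Promoter sequences are shown for the genes on which the comparison turns: Nppa and Nmrk2, which were the counted genes farthest apart between the libraries in each direction, Ankrd1, which had the most counts, and Nppb, the close neighbour of Nppa that had no count. Each run is the 250 bases before the RefSeq start of the gene (assembly GRCm38.p6), read 5′ to 3′ on the gene's own strand. Capitals mark matches, on either strand, to GATAA, the core bound by GATA factors, to CATTCC, the M-CAT element bound by TEAD factors, and to AAGTG, a core bound by NKX2-5. No match overlapped another.
Nppa, chr4:148000472-148000721, plus strand: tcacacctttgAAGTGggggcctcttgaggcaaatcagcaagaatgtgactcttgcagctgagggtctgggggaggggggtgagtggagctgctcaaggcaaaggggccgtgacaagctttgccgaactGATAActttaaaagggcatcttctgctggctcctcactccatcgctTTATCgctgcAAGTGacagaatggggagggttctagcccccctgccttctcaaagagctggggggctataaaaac
Nppb, chr4:147985650-147985899, plus strand: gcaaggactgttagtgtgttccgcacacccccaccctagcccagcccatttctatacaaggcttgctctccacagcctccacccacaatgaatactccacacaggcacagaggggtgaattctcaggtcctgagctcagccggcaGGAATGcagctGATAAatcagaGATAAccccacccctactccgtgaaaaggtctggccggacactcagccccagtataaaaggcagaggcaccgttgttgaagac
Ankrd1, chr19:36119845-36120094, minus strand: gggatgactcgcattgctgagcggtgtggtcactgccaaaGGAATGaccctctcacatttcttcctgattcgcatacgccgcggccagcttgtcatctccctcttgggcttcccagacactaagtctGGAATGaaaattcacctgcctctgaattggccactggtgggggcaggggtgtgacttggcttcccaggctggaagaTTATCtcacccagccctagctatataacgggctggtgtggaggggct
Nmrk2, chr10:81202038-81202287, minus strand: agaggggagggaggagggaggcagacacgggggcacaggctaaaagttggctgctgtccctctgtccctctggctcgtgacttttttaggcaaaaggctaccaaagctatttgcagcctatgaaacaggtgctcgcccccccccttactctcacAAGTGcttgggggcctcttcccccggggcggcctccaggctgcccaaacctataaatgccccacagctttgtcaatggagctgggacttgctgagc
The Nppa window held 2 GATAA and 2 AAGTG matches, and the Nppb window 2 GATAA matches and 1 CATTCC match. The Ankrd1 window held 1 GATAA and 2 CATTCC matches, and the Nmrk2 window 1 AAGTG match. Of 32851 RefSeq promoter windows of the same length, 22.6% held GATAA, 12.6% CATTCC and 40.7% AAGTG. These matches describe letters and no binding. Promoter entries were found for 8 of the 10 genes.

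The counts summed to 190824 in the transgenic and 170543 in the non-transgenic library, with a count on 7081 and 6725 genes. After TMM scaling, 1 count stood for 4.94 CPM (the count divided by the TMM-adjusted library size and put on the usual CPM scale) in the transgenic and 6.22 CPM in the non-transgenic library. Heart muscle transcripts were well counted, such as Myl2, the ventricular regulatory light chain, with 3916 and 2405 counts. Others were not, such as Myh6, the main adult myosin heavy chain gene, with 1 and 0 counts summed over 2 accessions. Genes that share exonic bases with an opposite-strand gene, called overlapping genes below, held 68.0% of the counts in the transgenic and 72.2% in the non-transgenic library. The labels do not state the strand setting of the counting, so which gene of an overlapping pair a read came from is uncertain. The antisense RNA gene A930016O22Rik, opposite Ckm, had 6993 counts in the transgenic and 7272 in the non-transgenic library, against 396 and 342 for Ckm. Mhrt, an RNA gene at the myosin heavy chain locus, had 737 and 1778. What the setting did to the counts of genes with no opposite-strand gene was not tested. Among the related genes named here that had a count, Npr1, Npr3, Corin, Nfatc3, Atf5, Ppp1r15a, Cryab, Des, Ctnna1, Jun, Pdgfra, Tagln, Myl2, Myh6, Myh7 and Ckm are overlapping genes. Mybpc3, the gene of the altered protein, had 398 counts in the transgenic and 344 in the non-transgenic library, and a count per gene does not separate the transgene from the endogenous gene, so it checks nothing about the labels.

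The natriuretic peptide gene Nppa was the only one of the 10 called higher in the transgenic library. Nppa had 31 counts in the transgenic and 9 in the non-transgenic library, which correspond to 153 CPM (95% exact Poisson interval 104 to 217) and 55.9 CPM (25.6 to 106). The transgenic library was therefore the high one, and the intervals of the levels overlapped at their ends. The ratio of normalised counts was 2.74 (95% Clopper-Pearson interval 1.27 to 6.54). A gene was called higher or lower here if its ratio was at least 1.5-fold and the counting interval lay on the same side of 1, among genes where either library exceeded 3 counts. Of 4236 such genes, 3.42% were called higher and 5.9% lower, and of the overlapping genes among them, to which Nppa, Nmrk2 and Ccn2 belong, 2.49% and 9.35%. Among the 908 of them with 30 to 120 counts over both libraries, a range that holds Nppa and was chosen after the counts were seen, 7.16% were called higher and 11.6% lower. Nppa also passed a 2-fold threshold, which 2.48% of all genes with a ratio passed in that direction.

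Nppa (chromosome 4, 148000722 to 148002079, plus strand, GRCm38) overlaps the antisense RNA gene Gm13054 on the minus strand over 532 bp, or 61.5% of its 865 bp of exons. Gm13054 had no accession in the count tables, so reads of this RNA and of Nppa could not be told apart and its part in the ratio was not tested. Clcn6, a chloride transporter gene whose nearest exon on the minus strand lies 2179 bp away, had 6 counts in the transgenic and 5 in the non-transgenic library, a ratio of 0.954 (0.243 to 3.95). Nppb, which encodes B-type natriuretic peptide and ends 13516 bp before Nppa on the same strand, had 0 counts in both libraries on both of its accessions. A floor of 3 counts corresponds to 14.8 CPM in the transgenic and 18.7 CPM in the non-transgenic library, but for a gene held as several accessions, as described further below, it sets no upper limit on expression. These 2 neighbouring genes, often read together as markers of wall stress, could thus be compared for Nppa alone.

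**Figure D1:**
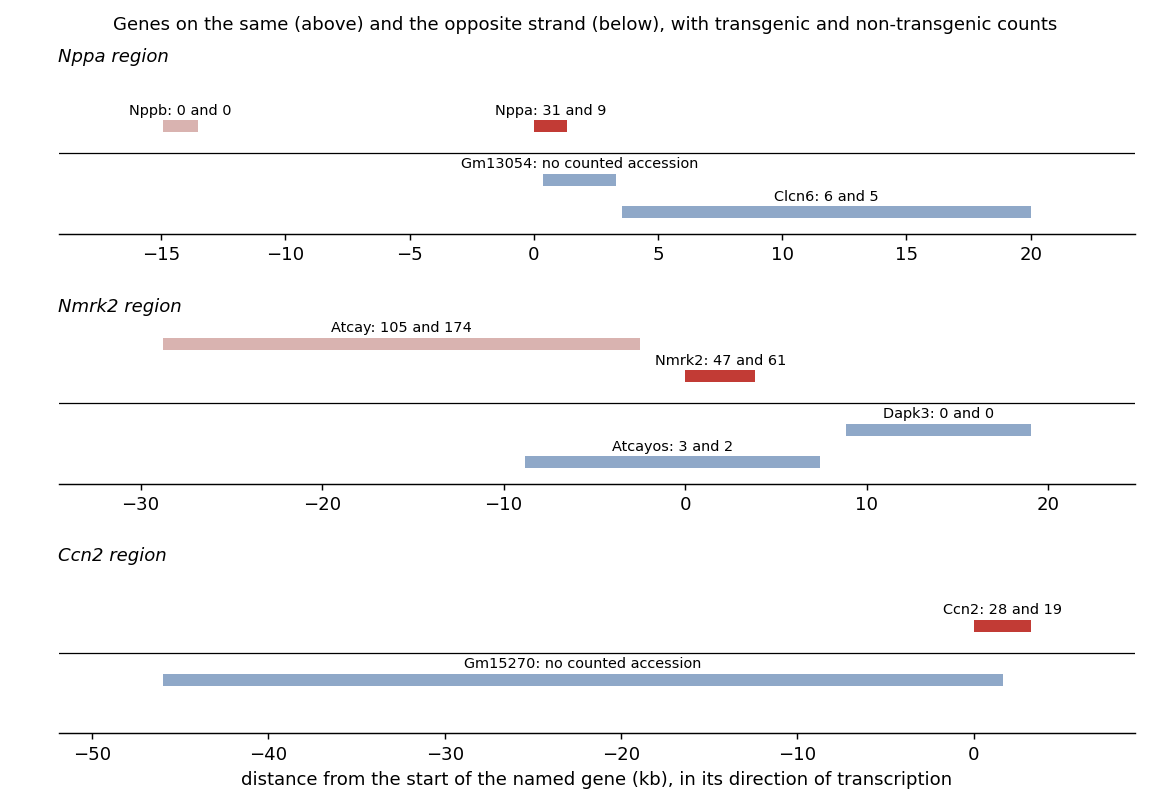
Genes around Nppa, Nmrk2 and Ccn2, drawn by distance in kb from the start of each named gene in its direction of transcription, with genes of the same strand above the line and of the opposite strand below it. Labels give the count in the transgenic and then the non-transgenic library, and Clcn6 is drawn only as far as 20 kb. Nppa and Ccn2 each lie opposite an RNA gene with no counted accession.

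The other side of natriuretic peptide signalling was barely counted. Of its 12 genes 9 are held as several accessions, a class in which 14.9% of all genes had a count, against 41.1% of genes with a single accession. The few counts are thus no measure of low expression. Of 12 further genes of the pathway, 3 had a ratio, none was called in either direction and the median log2 ratio was 0.25, against 0.05 for all genes with a ratio. At a minimum of 10 counts that median turned to -0.54. Npr1, the receptor through which atrial and B-type natriuretic peptide raise cyclic GMP, had 4 counts in the transgenic and 8 in the non-transgenic library, a ratio of 0.398 (0.0876 to 1.48). The clearance receptor gene Npr3 had 6 and 4 counts, a ratio of 1.19 (0.283 to 5.75). Corin, the protease that cuts the precursor of atrial natriuretic peptide, was looked at after its values were seen and had 6 counts in the transgenic library against 0. Its ratio against the floor of 3 counts was 1.59, and the lower end of the counting interval was 0.936. Corin was called higher with DESeq2 size factors, under total counts and with centring within strand class. With the most counted of its 2 accessions the ratio fell to 1.06 with a lower end of 0.525, and at a minimum of 10 counts Corin had no ratio.

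Nppa is made mainly by atrial muscle cells in the healthy adult heart, so the markers of atrial muscle were set beside it. Of 13 atrial markers 4 had a count, and the summed level was 351 CPM in the transgenic and 504 CPM in the non-transgenic library. Most of that sum was Clu, which other heart cells also express, with 64 and 75 counts. Clu, at a ratio of 0.678 (0.478 to 0.960), was called lower with upper-quartile scaling, with TMM factors from isolated genes and with centring within strand class. The defining atrial genes Sln (sarcolipin), Myl7 and Myl4 (atrial light chains) and Bmp10 were at 0 in both libraries, and Myl4 had several accessions. Sln, Myl7 and Bmp10 have 1 accession each and no opposite-strand exon within 5 kb. Genes of that strand class held 12.3% of the counts in the transgenic and 10.3% in the non-transgenic library. Why these atrial genes had no count was not tested, so their zeros are no measure of low expression or of the atrial share. Of 8 ventricular markers 6 had a count and 5 a ratio, with a median log2 ratio of -0.11. Their summed level was 19752 CPM in the transgenic and 15423 CPM in the non-transgenic library. Nearly all of it came from Myl2, at a ratio of 1.29 (1.23 to 1.36), which was called higher with centring within strand class. Lbh, the next most counted and named after its values were seen, lay on the other side of 1. It had 38 counts in the transgenic and 41 in the non-transgenic library, a ratio of 0.737 (0.461 to 1.17). In pooled whole hearts fewer cells of a type and less RNA per cell cannot be told apart.

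Nmrk2, a muscle enzyme gene that turns nicotinamide riboside into a precursor of NAD, was the only one of the 10 called lower in the transgenic library. It had 47 counts in the transgenic and 61 in the non-transgenic library, or 232 CPM (171 to 309) and 379 CPM (290 to 487). The transgenic library was the low one, and the intervals of the levels overlapped slightly. Nmrk2 was 1.63-fold lower (1.10 to 2.44), less than the 2-fold that 3.71% of all genes with a ratio passed in that direction. The call was lost with scaling by total counts, where the ratio was 0.689 (0.460 to 1.02), and with centring on genes of the same strand class, where it was 0.732 (0.489 to 1.09). Nmrk2 (chromosome 10, 81198170 to 81202051, minus strand) overlaps Atcayos on the plus strand over 270 bp, and genes with such an overlap had a median log2 ratio of -0.26 where they reached 30 counts over both libraries. Atcayos itself had 3 counts in the transgenic and 2 in the non-transgenic library, and Dapk3, 4972 bp away on the plus strand, had none.

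Of 15 other genes of NAD synthesis and use 2 had a ratio and none was called, with a median log2 ratio of 0.17. Nampt, the rate-limiting enzyme of the main salvage route from nicotinamide, had 50 counts in the transgenic and 25 in the non-transgenic library, a ratio of 1.59 (0.965 to 2.68), on the other side of 1 from Nmrk2. Nampt was called higher with DESeq2 size factors, at 1.71 (1.04 to 2.89), and under total counts, at 1.79 (1.09 to 3.02). Parp1, which consumes NAD in DNA repair, had 7 counts in each library.

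Ankrd1, which encodes a stretch-responsive ankyrin-repeat protein bound to titin and also found in the nucleus, had the most counts of the 10 genes and the tightest interval. It had 276 counts in the transgenic and 227 in the non-transgenic library, or 1364 CPM (1208 to 1535) and 1411 CPM (1234 to 1607). The libraries overlapped almost fully. The ratio was 0.967 (0.808 to 1.16), so a difference of 1.5-fold in either direction lay outside the counting interval, and its log2 ratio, -0.05 as reported, turned to 0.06 under DESeq2 size factors and to 0.12 under total counts. Ankrd1 (chromosome 19, 36111961 to 36120099, minus strand) lay more than 5 kb from any opposite-strand exon. It ranked 101st of all genes by count in the transgenic and 117th in the non-transgenic library.

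Of 17 listed genes of titin-associated stretch sensing, the setting of Ankrd1, 9 had a ratio, none was called and the median log2 ratio was -0.04. Named after their values were seen, Tcap (a titin cap protein of the Z-disc) and Des (desmin, a muscle intermediate filament protein) were called higher under total counts, and Des also with centring within strand class. Their ratios as reported were 1.36 (1.18 to 1.56) for Tcap and 1.37 (1.15 to 1.63) for Des. Cryab, a small heat shock protein that protects titin and desmin, overlaps Hspb2 and had 997 counts in the transgenic and 861 in the non-transgenic library, a ratio of 0.921 (0.840 to 1.01).

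Xirp1, which encodes an actin-binding Xin repeat protein of the intercalated disc, was counted lower but missed the call. It had 34 counts in the transgenic and 43 in the non-transgenic library, or 168 CPM (116 to 235) and 267 CPM (193 to 360), and the intervals of the levels overlapped. The ratio was 0.629 (0.389 to 1.01). Xirp1 was called lower with upper-quartile scaling, with both other sets of TMM factors and with centring within strand class, at ratios between 0.584 and 0.621. Xirp1 (chromosome 9, 120013755 to 120023598, minus strand) lies 2306 bp from the RNA gene Gm49427 on the plus strand, which had no counted accession.

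Among 15 partners at the intercalated disc, where muscle cells join end to end, 9 had a ratio, 2 were called higher, none lower and 7 neither, and the median log2 ratio was -0.11. Over all genes with a ratio, 3.42% were called higher and 5.9% lower. Pkp2, a desmosome protein gene, had 44 counts in the transgenic and 14 in the non-transgenic library and was 2.50-fold higher (1.34 to 4.94), and no opposite-strand exon lies within 5 kb of it. Ctnna1, alpha-catenin, overlaps Lrrtm2 and was 1.56-fold higher (1.10 to 2.23) with 100 and 51 counts, a call that was lost with TMM factors from isolated genes. Pkp2 and Ctnna1 thus lay on the other side of 1 from Xirp1, whose interval as reported held 1. Cdh2, N-cadherin, named after its values were seen, had 35 counts in the transgenic and 40 in the non-transgenic library, a ratio of 0.696 (0.429 to 1.12), and was called lower with centring within strand class.

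Ccn2, connective tissue growth factor, a secreted matrix protein induced by stretch and TGF-beta, had 28 counts in the transgenic and 19 in the non-transgenic library. The levels were 138 CPM (92.0 to 200) and 118 CPM (71.1 to 184), which overlapped over most of their range. The ratio was 1.17 (0.632 to 2.22), so a level 2-fold higher lay inside the counting interval. Ccn2 (chromosome 10, 24595442 to 24598683, plus strand) overlaps Gm15270 on the minus strand over 665 bp, or 23.2% of its exons, and Gm15270 had no counted accession. Of 19 further targets and ligands of YAP and TGF-beta 6 had a ratio, none was called and the median log2 ratio was -0.02. Amotl1 and Amotl2, both known YAP targets, had 9 and 6 counts in the transgenic library against 7 and 5 in the non-transgenic library, ratios of 1.02 (0.339 to 3.23) and 0.954 (0.243 to 3.95).

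**Figure D2:**
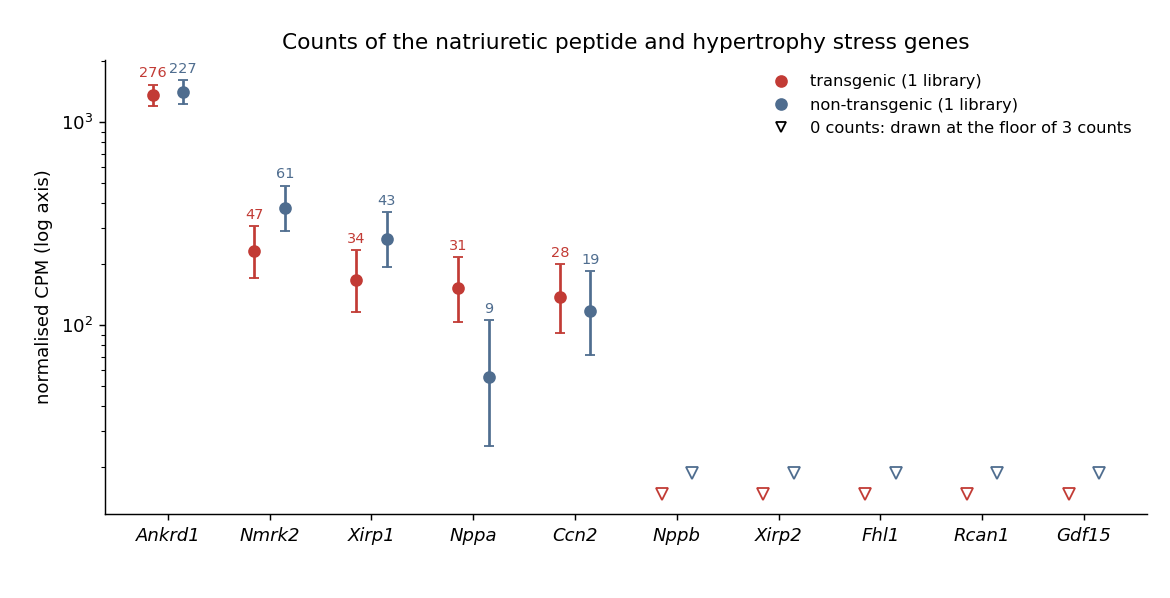
Level of each of the 10 genes in normalised CPM on a log axis, with 95% exact Poisson intervals and the raw count above each point, for the transgenic library (left of each pair) and the non-transgenic library. Nppa was higher and Nmrk2 lower in the transgenic library beyond counting error of the ratio, and 5 genes with 0 counts are drawn at the floor of 3 counts.

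The remaining genes, Xirp2 (the second Xin repeat gene), Fhl1 (a LIM-domain protein that senses strain at titin), Rcan1 (a calcineurin inhibitor whose transcription calcineurin itself drives), Gdf15 (a secreted stress hormone) and Nppb, had 0 counts in both libraries. Each is held in the tables as several transcripts, 4 accessions for Fhl1 and 2 for each of the others, whereas each of the 5 counted genes has a single accession. Over all genes, 41.1% of 17075 genes with a single accession had a count, against 14.9% of 7929 genes with several. Counting per transcript can discard reads that several transcripts share, and whether this set these counts to 0 was not tested. The zeros are thus no measure of low expression, and no ratio was given. By strand, Nppb and Gdf15 have no opposite gene within 5 kb, Rcan1 lies 259 bp from Gm46555, Fhl1 lies 4511 bp from Map7d3 (0 counts in both), and Xirp2 overlaps Gm13601 over 168 bp.

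The pathways around these uncounted genes were likewise thinly covered. Several accessions are held for 13 of the 19 calcineurin genes and 7 of the 16 stress response genes below, so few counts are no measure of low expression here either. Of 19 further genes of calcineurin signalling 2 had a ratio and none was called. They were Ppp3r1, the regulatory subunit of calcineurin, with 14 counts in the transgenic and 5 in the non-transgenic library (ratio 2.23, 0.758 to 7.90), and the transcription factor gene Nfatc3, with 5 and 4 counts (0.994, 0.214 to 5.01). Of 16 genes of the integrated stress response, which can drive Gdf15, 2 had a ratio and none was called. Atf5 had 5 counts in the transgenic and 9 in the non-transgenic library (0.442, 0.116 to 1.47), and Ppp1r15a had 7 and 4 (1.39, 0.354 to 6.48).

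Set against each other, the 5 counted genes did not share 1 ratio between the libraries within counting error. The log2 ratios ran from -0.71 for Nmrk2 to 1.45 for Nppa, with a median of -0.05, against 0.05 for all genes with a ratio. A fold between genes of the same library does not depend on the factor that scales a library, and among 10 pairs the counting interval lay on 1 side of 1 in 4. The count of Nppa relative to Nmrk2 was 0.660 in the transgenic and 0.148 in the non-transgenic library, a 4.47-fold difference (exact conditional interval 1.84 to 11.6). Nppa relative to Xirp1 differed 4.36-fold (1.71 to 11.7), and relative to Ankrd1 2.83-fold (1.28 to 6.90). Ankrd1 relative to Nmrk2 differed 1.58-fold (1.02 to 2.46). For Nppa relative to Ccn2 the interval held 1 (2.34-fold, 0.833 to 6.83), as it did for Xirp1 relative to Nmrk2 (1.03-fold, 0.545 to 1.93). Centring within strand class does move pairs of different classes. With it, Ankrd1 relative to Nmrk2 differed 1.17-fold with an interval that held 1 (0.752 to 1.82), whereas Ccn2 relative to Xirp1 differed 2.31-fold (1.04 to 5.17). The 3 folds of Nppa relative to Nmrk2, Xirp1 and Ankrd1 were then 4.47, 5.41 and 3.83, with intervals above 1. The intervals were not adjusted for the number of pairs. Pairs that share Nppa rest on the same 31 and 9 counts, and the genes of each pair were ordered by the ratios seen.

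**Figure D3:**
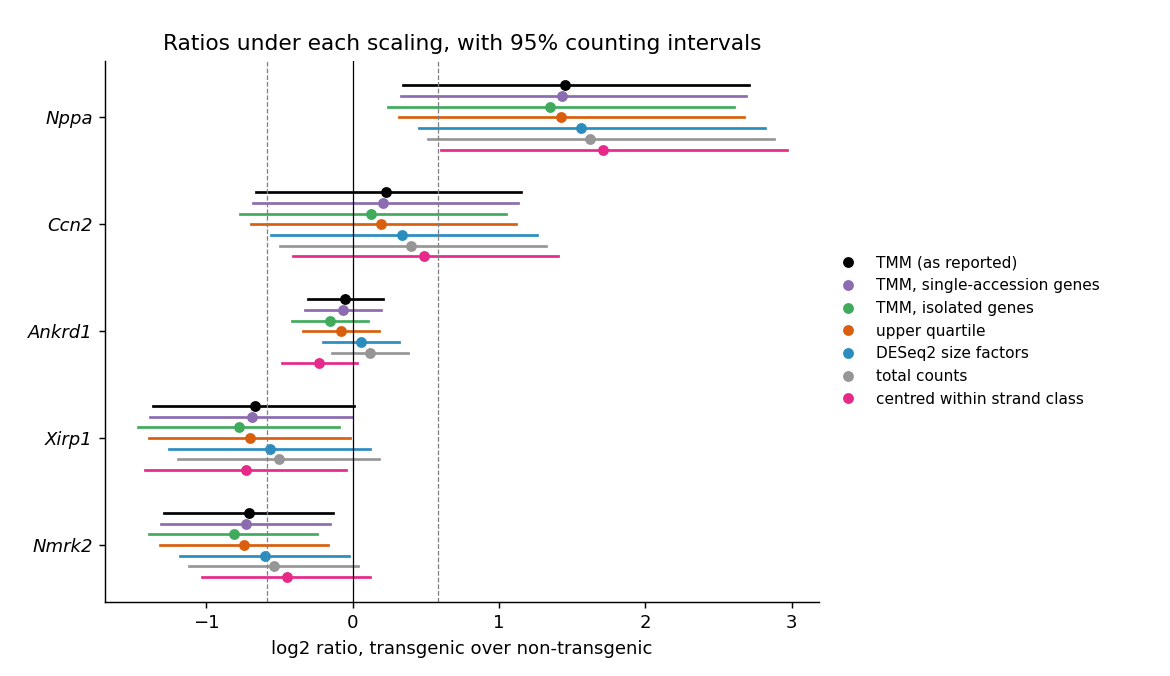
Log2 ratio of the 5 counted genes, transgenic over non-transgenic, with 95% counting intervals under 7 scalings, and dashed lines at 1.5-fold in each direction. The interval of Nppa lies above 0 under every scaling drawn, whereas those of Nmrk2 and Xirp1 cross 0 under some of them.

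**Figure D4:**
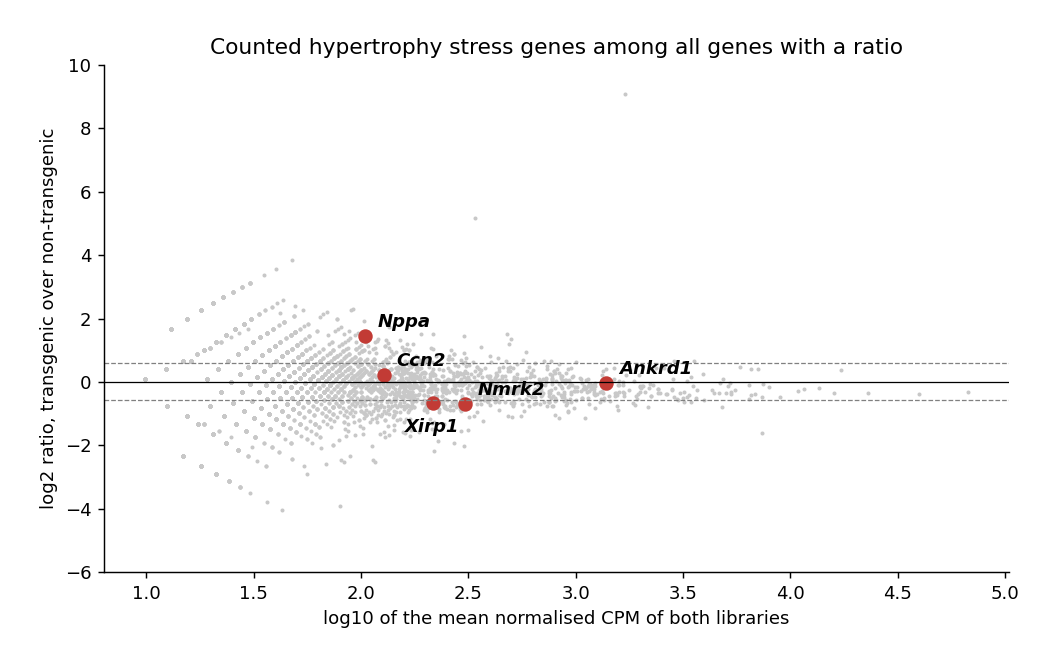
Log2 ratio, transgenic over non-transgenic, against the log10 mean level in normalised CPM for 4236 genes with a ratio (grey), with the 5 counted genes in red and dashed lines at 1.5-fold. Nppa lies above the upper line at 31 counts in the transgenic and 9 in the non-transgenic library, where the counting interval is wide. Ankrd1 lies near 0 among genes of high counts.

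Per kb of transcript, Ankrd1 had the highest level of the counted genes in both libraries, and the order of the others differed. In the transgenic library the levels were 675 CPM per kb for Ankrd1 (598 to 760), 177 for Nppa (120 to 251), 125 for Nmrk2 (92.1 to 167), 57.7 for Ccn2 (38.4 to 83.4) and 28.8 for Xirp1 (19.9 to 40.2). Neighbours in that order whose intervals overlapped were Nppa and Nmrk2, and Ccn2 and Xirp1. In the non-transgenic library the levels were 699 CPM per kb for Ankrd1 (611 to 796), 205 for Nmrk2 (156 to 263), 64.7 for Nppa (29.6 to 123), 49.3 for Ccn2 (29.7 to 76.9) and 45.8 for Xirp1 (33.1 to 61.7). Here Nppa, Ccn2 and Xirp1 overlapped. Nppa was thus placed above Nmrk2 in the transgenic and below it in the non-transgenic library, and only in the second did the intervals stand apart. Levels of overlapping genes carry the doubt on strand given above.

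Genes of the fetal programme, with their adult counterparts, and immediate early genes were compared as the wider setting of the stress response. Of 12 such fetal and adult genes 4 had a ratio, none was called and the median log2 ratio was 0.25, which turned to -0.34 with no filter on low counts. The list mixes fetal genes such as Myh7 with adult ones such as Tnni3, so its median gives no direction of the fetal programme. Actc1, cardiac actin, had 1525 counts in the transgenic and 906 in the non-transgenic library, a ratio of 1.34 (1.23 to 1.45), and Tnni3, the adult cardiac troponin I, had 1374 and 783, a ratio of 1.40 (1.28 to 1.53). These intervals lay above 1, at a size below 1.5-fold. Tnni3 was called higher with DESeq2 size factors, and both were under total counts. Myh7, the fetal myosin heavy chain gene, named after its values were seen, lay on the other side of 1 with 20 counts in the transgenic and 27 in the non-transgenic library, a ratio of 0.589 (0.313 to 1.09). The fetal troponin I gene Tnni1 was at 0 in both libraries, but it has 2 accessions, so its 0 is no measure of low expression. Of 17 immediate early genes, which rise within minutes of stretch or of handling of the tissue, 6 had a ratio and none was called. The median log2 ratio was 0.41 and turned to -0.33 with no filter on low counts. Klf4 had 23 counts in the transgenic and 13 in the non-transgenic library (1.41, 0.683 to 3.02), and Ier3 had 11 and 7 (1.25, 0.442 to 3.80).

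Markers of other cell types of the heart differed in both directions, and their part in the values above was not tested. Over all genes with a ratio, 3.42% were called higher and 5.9% lower. Of 8 smooth muscle and pericyte markers 3 had a count and 1 was called, with a summed level of 964 CPM in the transgenic and 615 CPM in the non-transgenic library. The pericyte gene Rgs5 was 1.92-fold higher (1.43 to 2.61) with 157 and 65 counts and made up most of that sum. Tagln, a smooth muscle gene named after its values were seen, had 26 counts in the transgenic and 28 in the non-transgenic library, a ratio of 0.738 (0.416 to 1.31). Of 10 fibroblast markers 8 had a count and 1 was called lower, at a summed level of 321 CPM in the transgenic and 404 CPM in the non-transgenic library, and Col3a1 was 2.07-fold lower (1.02 to 4.34), a call lost with DESeq2 size factors and under total counts. The most counted of them, Dpt, had 26 counts in the transgenic and 14 in the non-transgenic library, a ratio of 1.48 (0.743 to 3.06). Pdgfra had 1 and 0 counts and Postn none, and both have several accessions, so these values are no measure of low expression. Of 9 endothelial markers 5 had a count and none was called, with sums of 1280 CPM in the transgenic and 1417 CPM in the non-transgenic library. Their most counted gene, Fabp4, had 188 and 154 counts, a ratio of 0.971 (0.780 to 1.21). Of 8 macrophage markers 6 had a count and none was called, at 148 CPM in the transgenic and 112 CPM in the non-transgenic library. Adgre1, which also has several accessions, was at 0, and the most counted, Lyz2, had 15 and 6 counts. Of 10 skeletal muscle markers 4 had a count, at 2022 CPM in the transgenic and 2176 CPM in the non-transgenic library, nearly all from Ckm, which heart muscle also expresses, and the skeletal myosin genes Myh1, Myh2 and Myh4 were at 0.

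**Figure D5:**
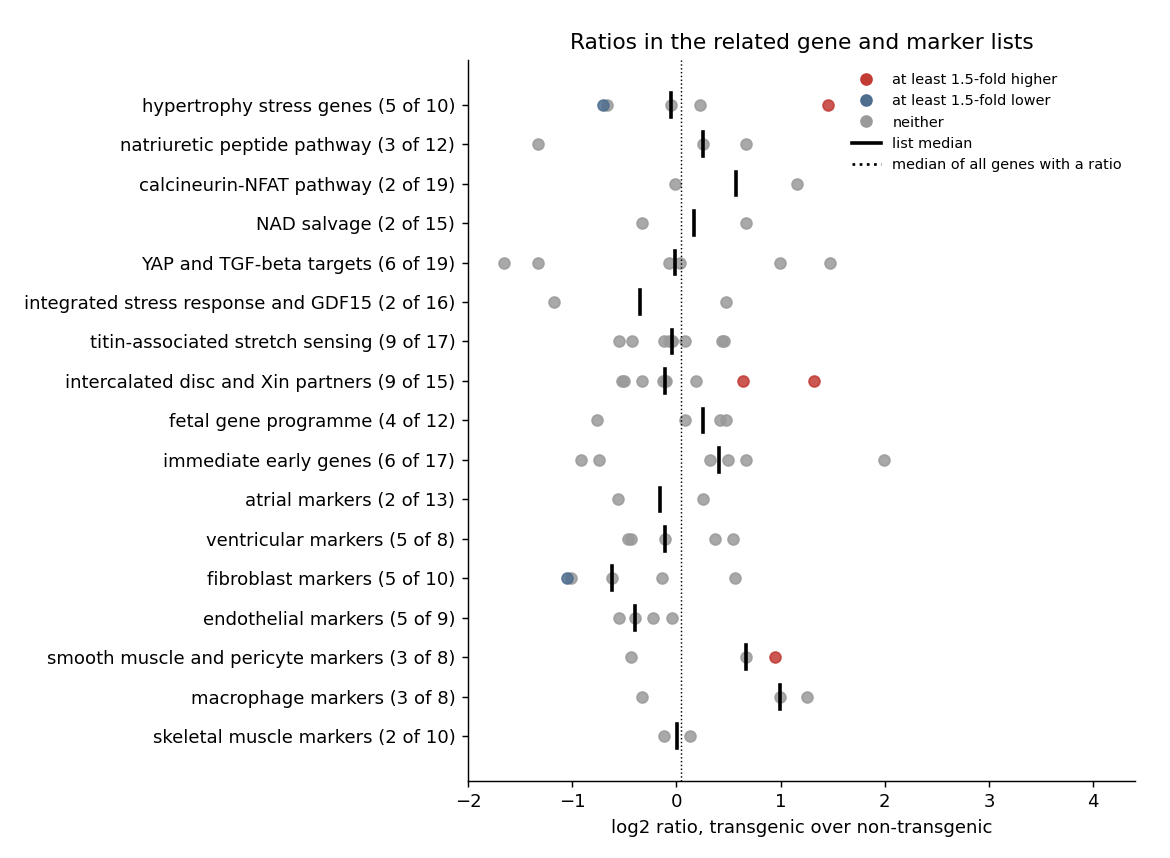
Log2 ratio of each gene with a ratio, transgenic over non-transgenic, in the 10 genes described and in each related gene or marker list, with the number with a ratio and the list size in brackets. Red and blue points were called at least 1.5-fold higher or lower, bars mark list medians, and few genes in any list passed the call.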

How the data were processed

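The authors deposited unnormalised read counts, 1 per RefSeq transcript accession. STAR, HTSeq and mm10 are named in the submitters' processing notes, and per the labels' protocols the libraries were poly-A selected and stranded. The tool versions, annotation and strand setting were not given in the sources used here. Counts of 41449 accessions were summed per gene (41252 named from a RefSeq gene table, 99 from GENCODE, 98 unnamed). No value column was left unused. Strand classes come from GENCODE M21 exons (GRCm38, equivalent to mm10): overlapping (at least 1 bp), near (within 5 kb) or isolated. Transcript lengths for CPM per kb come from the same release.

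Libraries were scaled by TMM (edgeR 4.0.16, R 4.3.3). With 1 library per group no test or p-value was computed. Ratios carry 95% Clopper-Pearson intervals, levels exact Poisson intervals and pairs exact conditional intervals, all for counting error only. A count of 0 was set to a floor of 3 counts. Other scalings (DESeq2 1.42.0, upper quartile, totals, TMM on gene subsets), centring within strand class, 1 accession per gene, other count minimums and a 2-fold threshold were tried as alternatives. Calculations, tested on simulated counts, used Python 3.11.15, numpy 2.4.6, scipy 1.17.1 and pandas 2.3.3. The genes and lists were chosen with earlier results of these data known. All 10 genes are described whatever their values; for each related list up to 4 called genes, or else the 2 most counted, and for marker lists the most counted, are named, except 1 gene that is not reported here.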

Additional observations from a re-analysis of the deposited data

How the results depend on the processing

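The number of the 10 genes called higher was 1 under every alternative run, and it was Nppa each time, with a log2 ratio from 1.35 to 1.71. Only the 5 counted genes could be called. The share of all genes called was computed for the reported scaling alone. It was 3.42% higher and 5.9% lower at 1.5-fold, and 2.48% and 3.71% at 2-fold. The numbers called under other scalings thus have no such share beside them. The number called lower, 1 as reported (Nmrk2), was 2 with upper-quartile scaling, 2 with TMM factors from isolated genes and 2 with TMM factors from single-accession genes, where Xirp1 joined Nmrk2. It was 0 with total counts and 0 at a threshold of 2-fold. With centring within strand class it stayed at 1, but the gene was Xirp1 and not Nmrk2. The log2 ratio of Nmrk2 ran from -0.81 to -0.45, that of Xirp1 from -0.77 to -0.50, that of Ccn2 from 0.12 to 0.49 and that of Ankrd1 from -0.23 to 0.12. DESeq2 1.42.0 size factors moved the median over all genes by 0.11 on the log2 scale, total counts by 0.17 and TMM factors from isolated genes by -0.11. Taking the most counted accession, no filter on low counts or a minimum of 10 counts could not change these values, since each of the 5 counted genes has 1 accession and more than 10 counts, and they say nothing on stability. TMM factors from single-accession genes and centring within strand class were chosen after seeing the data. Of 441 list medians and counts recomputed, 421 stayed within the spread of the list or within 1.5 times the count, and 20 did not. Many of these counts were 0 under every setting, and some settings left most listed genes unchanged. A median could also change sign within the spread, as for the immediate early genes (0.41 to -0.33 with no filter on low counts). The 421 is thus no measure of stability. No paired analysis was possible because each group has 1 library. The depth limits every gene here: a ratio from 31 and 9 counts has an interval that spans from 1.27 to 6.54, and 5 of the 10 genes had no count.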

Other observations

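Atcay, the gene next to Nmrk2 on the same strand and also overlapping Atcayos, was looked at after its values were seen. It had 105 counts in the transgenic and 174 in the non-transgenic library, a ratio of 0.480 (95% counting interval 0.373 to 0.615). It is known as a gene of the nervous system. Its value lay on the same side of 1 as that of Nmrk2 at 0.613 (0.410 to 0.911). Reads of Atcay and of the genes opposite it could not be told apart by these counts.

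Klf6, a stretch-responsive transcription factor gene, had 10 counts in the transgenic and 2 in the non-transgenic library, a ratio of 3.98 (0.847 to 37.3). The interval held 1, and the gene was chosen after its values were seen.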
